A study of Mus musculus with 2 samples.

Results

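The receptors described here are 10 purinergic receptor genes: the ATP-gated channels P2rx1, P2rx4 and P2rx7, the P2Y receptors P2ry1, P2ry2, P2ry6, P2ry12, P2ry13 and P2ry14, and the adenosine receptor Adora2b. They were chosen by symbol, and each had its own row among the 50608 rows of the table. RNA was sequenced from peritoneal macrophages of C57BL6J mice, phagocytes of the abdominal cavity, labelled as a pool of males and females at embryonic day 15.5. The control was 1 library of cells that received DMSO, the solvent. The treated group was also 1 library, made after GW3965, a compound that activates the liver X receptors (LXRs), nuclear receptors for oxidised cholesterol. No genotype, transgene, stimulus, dose or time of treatment is given in the sources used here, and with 1 library per group no difference has a replicate check or a test. Which column holds GW3965 was inferred only from letters its name shares with the sample description.

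Purinergic receptors let a cell sense nucleotides and nucleosides that leave damaged or active cells. P2X receptors are channels opened by ATP, P2Y receptors couple ATP, ADP, UTP, UDP or UDP-sugars to G proteins, and adenosine receptors respond to the nucleoside left after the phosphates are removed. In macrophages they are known for driving chemotaxis towards dying cells, engulfment, and the release of interleukin 1 after the P2X7 channel opens.

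Values are FPKM, fragments per kilobase of gene scaled to depth, as deposited. The depths recovered from the steps of these values were 101866062 reads for DMSO and 75287120 for GW3965, and they turned each receptor's FPKM into whole reads. Intervals are exact 95% counting intervals on those reads (Poisson for a level, Clopper-Pearson for a ratio), and cover counting error only. Genes with a mean of 1 FPKM or more are called measured, and those at 1.5-fold or more, higher or lower, are counted on the scale of log2(FPKM + 1), which understates the change of low genes. Across the 11889 measured rows the median log2 ratio of GW3965 to DMSO was 0.24, and a value less that median is called centred. The known LXR targets Abca1, Abcg1, Srebf1 and Mylip were all higher in the GW3965 library, with centred log2 ratios from 1.49 to 3.40. All 9 general macrophage markers were measured, with a summed level of 5073 (DMSO) and 6082 FPKM (GW3965), most of it Lyz2. Of these 9, Mertk, an engulfment receptor, was higher as deposited and centred (6.79 and 13.9 FPKM) and none was lower. Over all measured rows 3.46% were higher as deposited and 1.38% centred. Fcgr1, at 1.08 and 2.01 FPKM, had a ratio of 1.86 but fell short of 1.5-fold with 1 FPKM added. None of the 5 markers of resident peritoneal macrophages (Gata6, Timd4, Icam2, Prg4 and Selp) was measured, and their summed level was 1.92 and 2.19 FPKM. Of 6 mesothelial and fibroblast markers 4 were measured, with a summed level of 11.9 and 18.7 FPKM. Dcn was higher as deposited but not centred (6.91 and 11.6 FPKM), Upk3b had 1.38 and 2.51 FPKM, none of the 6 was at 0, and their part in the receptor values was not tested. In further lists, 2 of 5 B cell, 1 of 5 neutrophil, 1 of 4 eosinophil and 1 of 5 endothelial markers were measured. Their summed levels were 2.72, 3.52, 2.02 and 1.95 FPKM in DMSO and 4.03, 3.96, 3.03 and 2.065 FPKM in GW3965. None of 5 T and NK cell or 5 dendritic cell markers was measured. The part of these cells in the receptor values was not tested.

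Of the 10 receptors, 6 were measured, and none of the 6 was higher or lower by 1.5-fold, as deposited or centred. Over all measured rows 3.46% were higher and 0.0757% lower as deposited, and 1.38% and 0.336% after centring. The count of 0 among 6 receptors is near that background. The median log2 ratio of the 6 was 0.16, against 0.24 over all measured rows. After centring 2 of the 6 lay above the median of all measured rows and 4 below it. P2rx4, the channel with the highest level, made up 59.2% of the summed FPKM of the 10 receptors in DMSO and 56.0% in GW3965. In cells pooled for RNA, fewer cells expressing a receptor and less of its RNA per cell cannot be told apart.

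**Figure D1:**
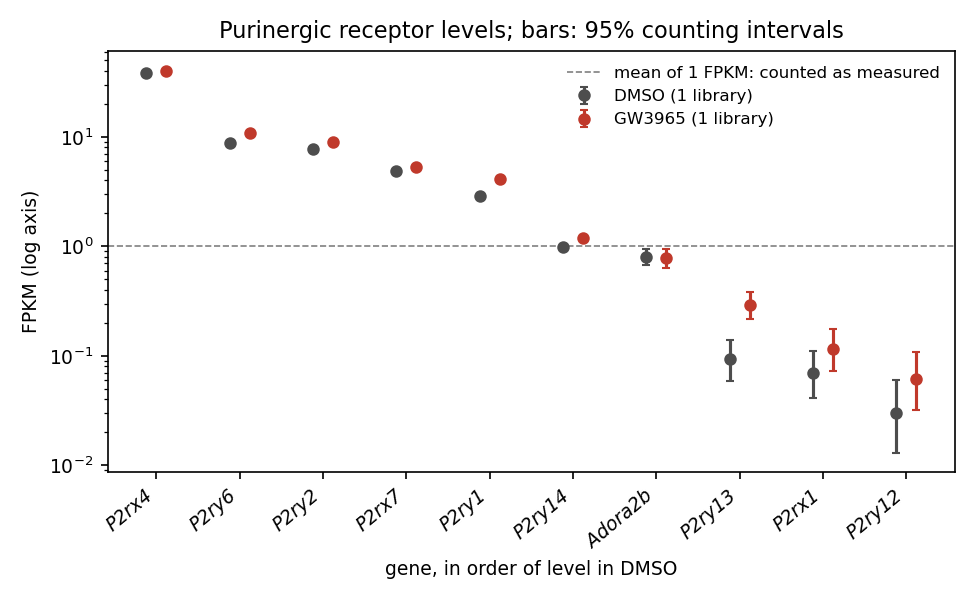
Level of each of the 10 receptors in FPKM on a log axis, in order of the DMSO level, for the DMSO library (grey) and the GW3965 library (red), 1 library each, with 95% counting intervals. The order runs from P2rx4 at 38.3 FPKM to P2ry12 at 0.0303 FPKM in DMSO and is the same in both libraries.

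The order of the levels was the same in both libraries: P2rx4, P2ry6, P2ry2, P2rx7, P2ry1, P2ry14, Adora2b, P2ry13, P2rx1 and P2ry12. In DMSO the counting intervals of neighbours overlapped for P2ry14 and Adora2b, for P2ry13 and P2rx1, and for P2rx1 and P2ry12. In GW3965 they overlapped for P2rx1 and P2ry12 alone. P2rx4 stood 4.32 times above P2ry6, the next gene, in DMSO and 3.70 times above it in GW3965.

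P2rx4, a calcium-permeable ATP channel found largely on lysosomes in macrophages, had 38.3 (DMSO) and 40.3 FPKM (GW3965), from 24975 and 19422 reads. Its ratio was 1.05 (95% counting interval 1.03 to 1.07) and its centred log2 ratio -0.17, the lowest of the 6 measured receptors. The mean level was above that of 93.9% of the measured rows that carry a gene symbol, close to the macrophage integrin Itgam (37.2 and 42.7 FPKM). The gene lies on chromosome 5 of GRCm38, from 122707544 to 122729738 on the plus strand.

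P2rx7, the channel whose opening by high ATP lets potassium leave the cell, lies next to P2rx4 on the same strand, at 122643911 to 122691432, with 16112 bases between the genes. It had 4.84 (DMSO) and 5.30 FPKM (GW3965), from 2927 and 2369 reads. The ratio was 1.10 (1.04 to 1.16), with a centred log2 ratio of -0.13. Both channels were thus slightly higher in GW3965 as deposited and slightly below the median of all measured rows. Camkk2, a kinase gene that lies 1432 bases beyond P2rx4 on the other strand, stood at 3.90 and 4.80 FPKM with a centred value of -0.003.

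P2rx1, a fast-closing channel best known from platelets and smooth muscle, lies on chromosome 11 (72999103 to 73015200, plus strand). It had 0.0696 (DMSO) and 0.115 FPKM (GW3965), from 18 and 22 reads. The ratio of 1.65 had a counting interval of 0.85 to 3.27, so no difference was detectable at this depth. Atp2a3, which lies 6059 bases before P2rx1 on the same strand, had 4.007 (DMSO) and 3.905 FPKM (GW3965). Its part in the P2rx1 reads was not tested. Of 7 platelet markers 1 was measured, Pf4 at 4.32 and 5.03 FPKM, Gp1ba stood at 0.737 and 0.963 FPKM, and the other 5 markers between 0.0185 and 0.149 FPKM in the libraries. None of 6 mast cell markers was measured, at a summed level of 0.794 (DMSO) and 1.95 FPKM (GW3965). None of these markers was at 0, and their part in the P2rx1 reads was not tested.

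The P2Y receptors that signal through Gq, the G protein that switches on phospholipase C and calcium release, were all measured. P2ry6, the receptor for UDP that is known for promoting uptake of particles, had 8.88 (DMSO) and 10.9 FPKM (GW3965). Its reads were either 1594 and 1448 or 3188 and 2896, since both fitted whole gene lengths near the annotated one. The ratio was 1.23, with an interval of 1.14 to 1.32 for the smaller reads and 1.17 to 1.29 for the larger, and the centred log2 ratio was 0.03. P2ry2, the receptor for ATP and UTP that guides phagocytes to dying cells, had 7.82 and 8.95 FPKM from 2383 and 2015 reads. Its ratio was 1.14 (1.08 to 1.21) and its centred log2 ratio -0.07. Both genes lie on the minus strand of chromosome 7, P2ry6 at 100937630 to 100974649 and P2ry2 at 100996568 to 101012866.

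P2ry1, an ADP receptor, had the largest difference of the measured receptors. It had 2.91 (DMSO) and 4.11 FPKM (GW3965), from 1003 and 1046 reads, a ratio of 1.41 (1.29 to 1.54). The interval lay above the median ratio of all measured rows, 1.25, but the value lay inside their central 90%, which ran from 0.976 to 1.64. For measured rows with a gene symbol the central 90% ran from 0.971 to 1.52, which also holds the P2ry1 value. On the scale with 1 FPKM added its log2 ratio was 0.39, or 0.14 centred, short of 1.5-fold. The gene lies on chromosome 3 (61002795 to 61008982, plus strand) and is overlapped on the opposite strand by Gm37035, a noncoding gene with no row in the table. Of the 4286 words of 50 bases in P2ry1 transcripts, 22.0% also occur in Gm37035, read from the other strand. No label states that strand was kept, so reads of these genes cannot be told apart there.

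**Figure D2:**
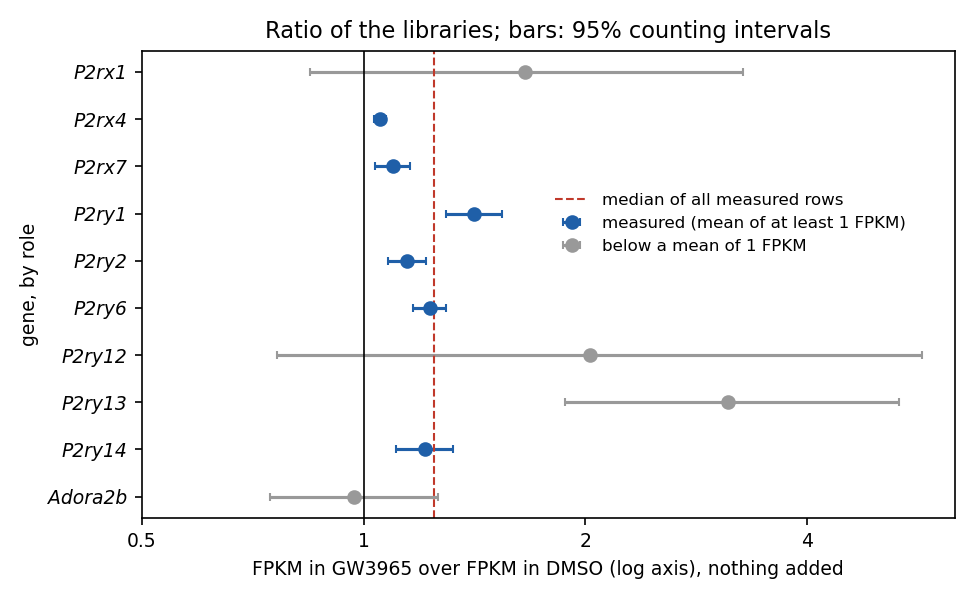
Ratio of the GW3965 level to the DMSO level for each receptor on a log axis, nothing added, with 95% counting intervals, blue for measured receptors and grey for those below a mean of 1 FPKM. The black line marks a ratio of 1 and the red dashed line the median of all measured rows, 1.25. P2ry1 is to the right of the red line and P2rx4, P2rx7 and P2ry2 to the left of it, whereas the intervals of P2ry6 and P2ry14 cross it.

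The P2Y receptors that signal through Gi, the G protein that lowers cyclic AMP, form a cluster on chromosome 3. All lie on the minus strand inside the span of Med12l (59005825 to 59318682, plus strand), a Mediator subunit gene with 0.0567 (DMSO) and 0.101 FPKM (GW3965). P2ry14, the receptor for UDP-glucose (59113855 to 59153618), was the only one measured, at 0.985 (DMSO) and 1.19 FPKM (GW3965) from 1049 and 938 reads. Its ratio was 1.21 (1.11 to 1.32) and its centred log2 ratio -0.10. P2ry14 passed the limit of 1 FPKM narrowly, with a mean of 1.09, and Adora2b, the next gene in the order, missed it with a mean of 0.790.

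P2ry13, an ADP receptor (59207892 to 59210882), had the largest ratio of the 10. It had 0.0931 (DMSO) and 0.290 FPKM (GW3965), from 23 and 53 reads, a ratio of 3.12 (1.88 to 5.33). Low rows as a whole had higher ratios in these libraries. Among 2677 symbol rows with a mean from 0.1 to under 0.3 FPKM the median ratio was 1.48 and the central 90% ran from 0.812 to 4.28, which holds the P2ry13 value. With 1 FPKM added its centred log2 ratio was -0.004. With 0.1 FPKM added and no filter on low values it was the 1 receptor of the 10 called higher, and 0 were lower. On that scale 16.8% of all 50608 rows passed as higher and 1.29% as lower, and centring made this 5.28% and 3.64%. Of those rows 25979 carry a NONCODE identifier and no gene symbol. P2ry12, the ADP receptor that marks microglia and sets off platelet aggregation (59216272 to 59262871), had 0.0303 and 0.0615 FPKM from 8 and 12 reads, a ratio of 2.03 (0.76 to 5.72). That is the level of 941 olfactory receptor genes, which are silent in most tissues and had medians of 0.0320 (DMSO) and 0.0738 FPKM (GW3965). The median ratio of those genes was 2.37. P2rx1 and P2ry12 share a band of 7523 symbol rows between 0.03 and 0.1 FPKM, with a median ratio of 1.98 and a central 90% from 0.752 to 5.86.

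Adora2b, the low-affinity adenosine receptor that raises cyclic AMP, lies on chromosome 11 (62248984 to 62266453, plus strand). It had 0.801 (DMSO) and 0.779 FPKM (GW3965), from 142 and 102 reads, and was the only receptor of the 10 with a ratio below 1, at 0.97 (0.75 to 1.26). Among 2080 symbol rows from 0.3 to under 1 FPKM the median ratio was 1.25, with a central 90% of 0.868 to 1.85. Its centred log2 ratio was -0.26. The other adenosine receptors were also below 1 FPKM in both libraries, Adora2a at 0.723 and 0.824 FPKM, Adora3 at 0.225 and 0.304 FPKM and Adora1 at 0.0476 and 0.0527 FPKM. Zswim7, which lies 771 bases beyond Adora2b on the other strand, had 2.66 and 2.92 FPKM.

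The length behind each FPKM bears on the order of the levels. The whole-read solutions gave the length each value was divided by, which was 10455 bases for P2ry14, 4.40 times that of its longest protein-coding transcript in GENCODE M21 (2476 bases, less the same 99 bases the authors' lengths were reduced by). On the coding transcript's length P2ry14 would stand at 4.33 (DMSO) and 5.24 FPKM (GW3965), above P2ry1 at 2.60 and 3.67 FPKM. P2rx4 was divided by 6398 bases, 2.46 times its longest coding transcript, and would stand at 94.2 and 99.1 FPKM. These levels place all counted reads on the coding transcript, and reads on other exons would lower them. Where the reads fell was not tested. P2rx7, P2ry1, P2ry2, P2ry12, P2ry13, P2rx1 and Adora2b had lengths from 0.893 to 1.23 times the coding one. P2ry6 was at 1.91 times with its larger length of 3526 bases. Its smaller solution, 1763 bases, was slightly shorter than its longest coding transcript of 1946 bases less 99. With that solution its level would not rise on the coding length. The change of length left every ratio between the libraries as it was. With all reads placed on the coding transcript it moved 2 genes in the DMSO order, P2ry1 and P2ry14, which traded places. Sequence shared with other genes was limited outside P2ry1: of the words of 50 bases in their M21 transcripts, P2rx4 shared 1.63% with other genes, P2rx7 1.17% and P2ry14 0.00897%, and the remaining 6 receptors shared none.

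**Figure D3:**
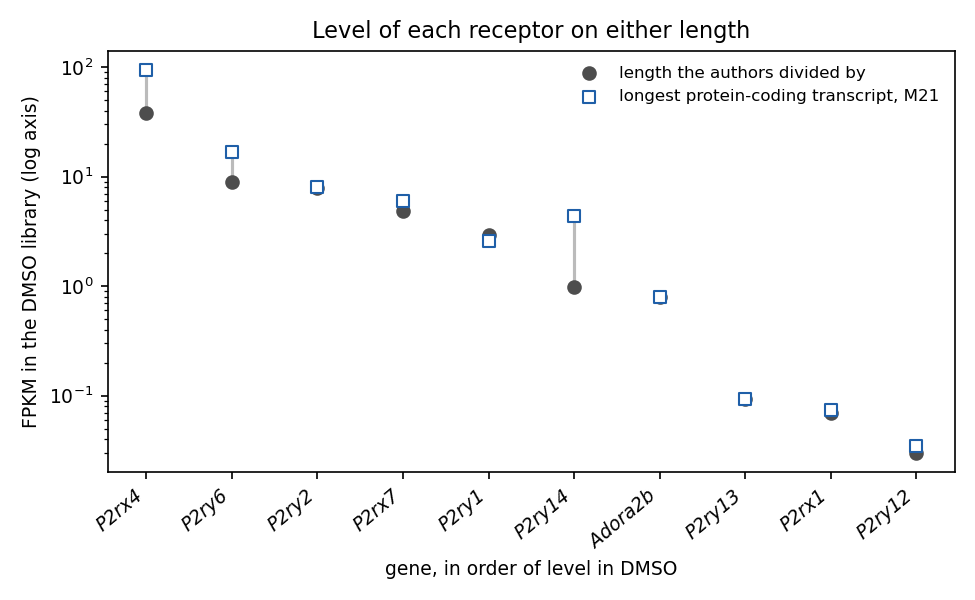
Level of each receptor in the DMSO library in FPKM on a log axis, on the length the authors divided by (filled circles) and on the longest protein-coding transcript of GENCODE M21 (open squares), with 1 library and no error shown. The squares place all counted reads on that transcript. P2ry14 moves from 0.985 to 4.33 FPKM and P2rx4 from 38.3 to 94.2 FPKM, whereas P2ry2, P2ry13 and Adora2b hardly move. P2ry6 is drawn with its larger length, and with its smaller length it would not rise.

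Promoter sequences of 9 of the 10 receptors were in RefSeq's table for GRCm38.p6, as 14 windows from 250 bases before to 50 bases after a start site. There was none for P2ry6. The LXR element of the direct repeat type, 2 copies of AGGTCA with any 4 bases between them, was searched on both strands, and so was the single hexamer AGGTCA, which is part of it. The whole element occurred in 0 of the 14 windows and in 0.0152% of all 32851 promoter windows, and it was not found by these letters in the Abca1 window. The hexamer occurred in 5 of the 14 windows, those of P2rx4, P2rx7, P2ry2, P2ry12 and P2ry14, 1 window each, and in 16.3% of all windows. The windows of P2rx4 (highest level), P2ry1 (largest ratio among the measured receptors) and P2ry13 (largest ratio of the 10) follow, 5′ to 3′ on the gene's strand, with a hexamer on either strand in capitals. They are chr5:122707294-122707593 (plus), chr3:61002535-61002834 (plus) and chr3:59210833-59211132 (minus).
P2rx4: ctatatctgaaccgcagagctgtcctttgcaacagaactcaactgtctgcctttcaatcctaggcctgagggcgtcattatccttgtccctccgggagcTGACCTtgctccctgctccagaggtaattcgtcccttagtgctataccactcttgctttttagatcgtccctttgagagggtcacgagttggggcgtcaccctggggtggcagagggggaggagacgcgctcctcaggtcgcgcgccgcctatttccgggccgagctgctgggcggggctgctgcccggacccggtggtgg
P2ry1: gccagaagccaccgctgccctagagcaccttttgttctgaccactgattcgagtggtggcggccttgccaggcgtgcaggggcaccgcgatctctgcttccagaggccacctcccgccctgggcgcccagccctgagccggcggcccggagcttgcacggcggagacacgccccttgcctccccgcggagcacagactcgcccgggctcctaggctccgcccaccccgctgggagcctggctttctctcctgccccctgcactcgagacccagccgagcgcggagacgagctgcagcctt
P2ry13: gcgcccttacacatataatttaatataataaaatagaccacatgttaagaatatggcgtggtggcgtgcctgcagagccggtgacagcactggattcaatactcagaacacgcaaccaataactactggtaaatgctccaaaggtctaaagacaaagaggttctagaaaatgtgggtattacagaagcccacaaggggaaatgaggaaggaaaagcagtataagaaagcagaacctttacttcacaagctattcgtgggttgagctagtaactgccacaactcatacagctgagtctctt
The P2rx4 window holds 1 hexamer, read on the opposite strand, that begins 151 bases before the start site. The other windows hold none. The P2ry1 window was 70.7% G and C, the P2rx4 window 60.3% and the P2ry13 window 42.3%, against a median of 52.7% over all windows. Matches of this kind describe letters in a window and not binding.

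Of 15 relatives in the same receptor families, 2 were measured, and neither was higher or lower by 1.5-fold on the scale with 1 FPKM added. Over all measured rows 3.46% were higher and 0.0757% lower as deposited. Lpar6, a lysophosphatidic acid receptor formerly counted as a P2Y receptor, had 8.11 (DMSO) and 12.2 FPKM (GW3965), and a centred log2 ratio of 0.29. The P2ry10b row, listed under the synonym A630033H20Rik, had 5.06 and 7.05 FPKM and a centred value of 0.17. Unmeasured relatives included P2rx5, a channel gene with 0.425 and 0.399 FPKM, and P2ry4, a UTP receptor with 0.0159 and 0.0245 FPKM.

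Cells release nucleotides through channels, break them down outside and take up the nucleosides. Of 12 genes of nucleotide release 8 were measured, with 0 higher and 0 lower and a median centred log2 ratio of -0.10. Vdac1, a porin, had 18.4 and 22.2 FPKM, and the volume-regulated channel subunit Lrrc8b had 8.36 and 8.81 FPKM. The related subunit Lrrc8a had 5.84 and 7.15 FPKM. Another relative, Lrrc8d, had the lowest centred value of that list, -0.35, at 2.40 and 2.16 FPKM, and was picked after its value was seen. Of 12 genes of extracellular breakdown 3 were measured, with 0 higher and 0 lower and a median of 0.11. Over all measured rows 3.46% were higher and 0.0757% lower as deposited, and the counts of 0 in these 2 short lists are near that background. Entpd1 (CD39), which removes phosphates from ATP and ADP outside the cell, had 12.4 (DMSO) and 16.0 FPKM (GW3965), a ratio of 1.30. Enpp1, which cuts ATP to AMP, had 1.62 and 2.41 FPKM, and Pnp, a nucleoside phosphorylase, had 11.4 and 13.5 FPKM. Nt5e (CD73), which turns AMP into adenosine, was far below the measured level, at 0.0702 and 0.137 FPKM. It was picked after its value was seen.

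Of 8 genes of nucleoside uptake 4 were measured, with 0 higher and 0 lower and a median centred log2 ratio of -0.14. The equilibrative transporter Slc29a1 had 13.04 (DMSO) and 11.7 FPKM (GW3965), a ratio of 0.893 and the lowest centred value of the pathway lists, -0.39. Its lysosomal relative Slc29a3 had 25.0 and 26.7 FPKM, and adenosine kinase (Adk) 9.24 and 10.9 FPKM. Of 20 genes of G protein signalling 16 were measured, with 0 higher and 0 lower and a median of -0.10. For both lists the count of 0 is near the background, since 3.46% of all measured rows were higher and 0.0757% lower as deposited. The Gi subunit Gnai2 had 83.0 and 87.2 FPKM and Gnai3 24.9 and 32.5 FPKM, while Gna13 had 44.3 and 55.7 FPKM.

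Of 11 genes that act with or after P2X7, 9 were measured, and 1 was higher as deposited and 0 after centring, with a median centred log2 ratio of -0.01. Over all measured rows 3.46% were higher as deposited. That gene was Kcnk6, a two-pore potassium channel known for the potassium efflux that follows ATP, with 9.99 (DMSO) and 16.1 FPKM (GW3965). Its ratio was 1.61, from 4054 and 4816 reads, and its centred value 0.39. Casp1, the protease that matures interleukin 1 beta, had 24.3 and 34.1 FPKM and a centred value of 0.23, and Txnip had 43.3 and 52.3 FPKM. The cytokine Il1b and the sensor Nlrp3 were not measured, at 0.0568 and 0.0629 FPKM and at 0.750 and 1.11 FPKM, and were picked after their values were seen. Over the 63 genes of these 5 lists together, 40 were measured, 1 of them was higher as deposited and 0 after centring, and their median centred log2 ratio was -0.05, against -0.09 for the 6 measured receptors.

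**Figure D4:**
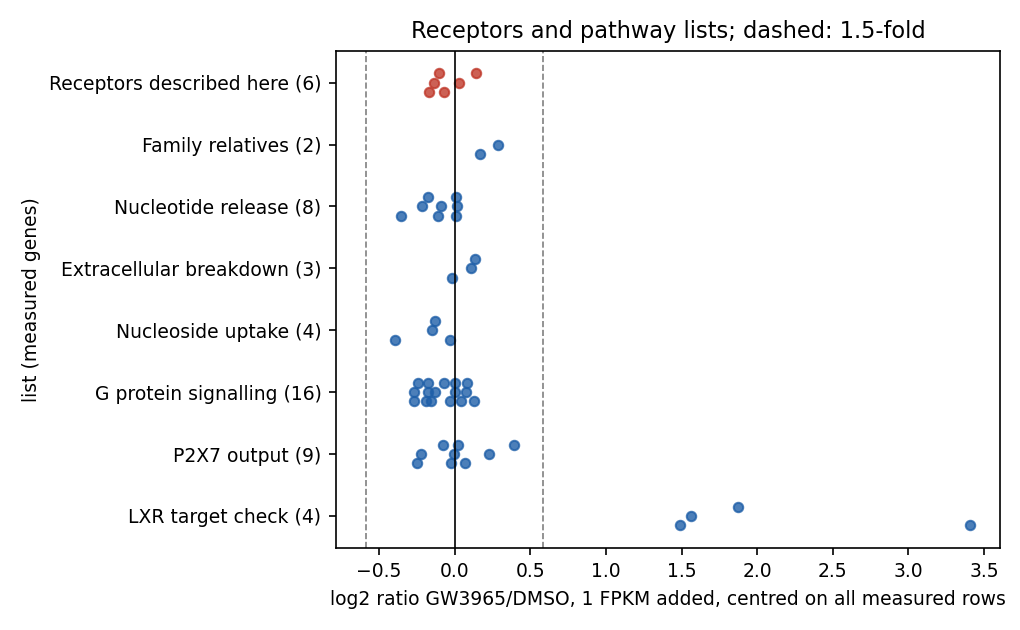
Centred log2 ratio of GW3965 to DMSO with 1 FPKM added, for every measured gene of each list, 1 point a gene. The solid line marks the median of all measured rows and the dashed lines 1.5-fold. The 6 receptors lie between -0.17 and 0.14 and every gene of the receptor and pathway lists lies inside the dashed lines, whereas the LXR targets run from 1.49 to 3.40.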

How the data were processed

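The authors deposited 1 table of FPKM values with a column for each library. STAR 2.3.0, HTSeq 0.5.4p3 and GRCm38 (mm10) are listed, without roles, per the submitters' processing notes. The annotation, strand setting, treatment of reads with several matches and filters are not stated there. The members and lists were chosen with earlier results of these data known.

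Depths were recovered from the FPKM steps: of 29845 rows below 0.3 FPKM in DMSO, 97.0% gave whole-read ratios (denominator up to 60, within rounding of the sixth decimal), against 4.5% with the factor moved by 1%. Exon lengths of GENCODE M21, less 99 bases, gave the depth (190 rows, against 62 at the next best). Reads are the whole solution nearest the M21 length.

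Lists were matched by symbol or RefSeq synonym, and all listed genes had a row. Named genes are the 10 receptors, the measured relatives and the LXR targets. Of the other lists, up to 4 genes each with the highest mean or largest log2 ratio are named. Annotated neighbours within 20 kb of a receptor are named in part, and Camkk1, Arhgef17 and Ttc19 are among those left out. A few others are named after their values were seen. The recovery was tested on simulated data. Calculations used scipy 1.17.1, pandas 2.3.3 and numpy 2.4.6 under Python 3.11.15, with plots from matplotlib 3.10.9.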

Additional observations from a re-analysis of the deposited data

How the results depend on the processing

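No paired analysis was possible because there was only 1 library in each group. The count of receptors lower by 1.5-fold was 0 under all 11 alternatives run. The count of receptors higher was 0 under 8 of them. It was 1 when scaled to the same sum of FPKM, where P2ry1 passed, a setting that called 2637 of 12479 measured rows higher. It was also 1 with 0.1 FPKM added and no filter on low values, as deposited or centred, where P2ry13 passed; these settings were chosen after seeing the data and call 16.8% or 5.28% of all rows higher. The median log2 ratio of the measured receptors, 0.16, was -0.085 when centred (6 receptors), -0.094 with the same upper quartile (5 receptors), 0.38 with the same sum, -0.215 with the same sum over rows with a gene symbol (5 receptors), and 0.27 with 0.1 FPKM added and no filter (10 receptors). Of 70 values of single receptors, with the limit applied to measured genes, 69 stayed on their side of it, 1 (P2ry1) gained it and 0 changed direction past it; P2ry13, which is not measured, also went past 1.5-fold with 0.1 FPKM added, to a log2 ratio of 1.015. Of 301 values of the 43 named genes, receptors included, the counts were 276, 15 and 0, and 10 lost it. In these counts a receptor that was not measured could not gain the limit. The alternative limit of 2-fold reused the same ratios, so no gene could gain it there. Part of the values that stayed was thus fixed in advance. A value that stayed could still change sign. With the same sum over rows with a gene symbol, P2rx4, P2rx7, P2ry2, P2ry6 and P2ry14 had log2 ratios of -0.355, -0.250, -0.215, -0.126 and -0.079. All 5 were above 0 as deposited. P2ry1 stayed above 0 there, at 0.043. Depth limits P2rx1, P2ry12 and P2ry13, since a single read on 1 kb adds 0.0098 (DMSO) or 0.0133 FPKM (GW3965).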
